A study of Mus musculus with 10 samples.

Results

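Histone deacetylases remove acetyl groups from lysines of histones and other proteins, and the 10 mouse genes Hdac1 to Hdac10 were followed here at the RNA level in developing B cells. They were chosen by gene name among the 23420 genes in the files, and all 10 had enough reads to be tested. RNA was sequenced from cells sorted from the bone marrow of C57BL/6 mice, in 4 groups. Small pre-B cells (B220+ IgM- CD43-, small by light scatter) gave 3 libraries labelled Mta2_VavKO and 3 libraries labelled control. Pro-B cells (B220+ IgM- CD43+) gave 2 libraries labelled Mta2_VavKO and 2 labelled control. The Vav promoter is active throughout blood-forming cells, so the deletion is not limited to B cells. Further details of the alleles, and the age and number of the mice, are not given in the labels, so a replicate here is a library and p-values measure the spread between libraries.

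These enzymes work as parts of larger assemblies. Hdac1 and Hdac2 are the catalytic subunits of the nucleosome remodelling and deacetylase (NuRD), Sin3, CoREST and MiDAC complexes, and Mta2 is one of the NuRD subunits that bind them. Hdac3 acts in the NCoR and SMRT complexes, while Hdac8 works outside these complexes and deacetylates the cohesin ring; these are the class I enzymes. The class IIa enzymes Hdac4, Hdac5, Hdac7 and Hdac9 bind MEF2 transcription factors and leave the nucleus when kinases phosphorylate them, which lets 14-3-3 proteins hold them in the cytoplasm. The class IIb enzyme Hdac6 deacetylates tubulin, and Hdac10 deacetylates polyamines. In mice, loss of Hdac1 and Hdac2 together stops early B cell development, and Hdac7 is known to hold down myeloid genes in B cell precursors.

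The upstream sequences of Hdac8, Hdac5 and Hdac6 are shown because Hdac8 and Hdac5 were higher in small pre-B than in pro-B cells in every fit tried, and Hdac6 was lower. Each is the 250 bases before the gene's start, read 5′ to 3′ on the gene's own strand (the minus strand), from RefSeq on build GRCm38.p6. Capitals mark GC boxes (GGGCGG) and E boxes (CANNTG), searched on both strands.
Hdac8, chrX:102505159-102505408: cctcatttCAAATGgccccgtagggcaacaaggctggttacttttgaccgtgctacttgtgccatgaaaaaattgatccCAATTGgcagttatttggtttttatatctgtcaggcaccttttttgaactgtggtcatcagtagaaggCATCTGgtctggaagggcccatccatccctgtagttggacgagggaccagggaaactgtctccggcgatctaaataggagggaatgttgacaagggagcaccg
Hdac5, chr11:102230173-102230422: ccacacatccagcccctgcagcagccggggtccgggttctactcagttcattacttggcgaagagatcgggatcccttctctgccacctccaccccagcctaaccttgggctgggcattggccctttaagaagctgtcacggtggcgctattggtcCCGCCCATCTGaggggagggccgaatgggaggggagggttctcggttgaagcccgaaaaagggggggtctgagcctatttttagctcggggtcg
Hdac6, chrX:7947890-7948139: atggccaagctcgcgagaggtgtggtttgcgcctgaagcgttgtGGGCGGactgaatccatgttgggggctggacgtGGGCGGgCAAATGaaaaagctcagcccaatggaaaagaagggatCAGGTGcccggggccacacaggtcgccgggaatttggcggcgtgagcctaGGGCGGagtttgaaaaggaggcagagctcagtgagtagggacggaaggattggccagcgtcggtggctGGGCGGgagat

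The Hdac8 stretch held 0 GC boxes and 3 E boxes and was 48.4% G and C. That of Hdac5 held 1 GC box, written there as CCGCCC, which overlapped 1 E box by a single base, and it was 60.8% G and C. That of Hdac6 held 4 GC boxes and 2 E boxes and was 61.2% G and C. A GC box was present in 32.7% and an E box in 66.2% of the 32851 upstream stretches of the same length, whose median G and C content was 52.4%. RefSeq upstream stretches were at hand for 7 of the 10 genes and not for Hdac1, Hdac3 and Hdac10. Among the others, 1 of the starts of Hdac9 had the octamer ATGCAAAT, which 1.60% of all stretches held. The start of Hdac8 in this table lies 10 bases upstream of the 5′ end counted in the files. These matches describe the letters and are not evidence of binding.

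Total counts were 17805507 to 38392136 in small pre-B libraries and 48860391 to 52127004 in pro-B libraries, so 3 counts corresponded to 0.0576 to 0.169 CPM before scaling (CPM is a gene's count relative to its library's total count, and below the totals are scaled between libraries by the trimmed mean of M values). The members had between 95 and 17479 counts in a library. The 3 small pre-B KO libraries had 199, 179 and 198 CPM of Mta2, against 438, 246 and 412 CPM in the small pre-B controls (log2 fold change -0.93, SE 0.19, adjusted p = 0.0420, edgeR quasi-likelihood test), a call kept in 7 of 19 alternative fits and, of those leaving out 1 library, only without small pre-B control 2. The pro-B KO libraries had 162 and 166 CPM, against 436 and 375 CPM in the pro-B controls (-1.31, SE 0.24, adjusted p = 0.212). These counts cover the whole transcript, so any exons left in place by the deletion contribute to them. Small pre-B control 3 stood apart, with 0.953% of its counts in histone genes and 1.4% in Malat1, where no other library exceeded 0.0399% and 0.290%. Its file header carries another number than its title. Small pre-B KO libraries 1 and 2 had 2518 and 2942 CPM of Xist (transcribed from the inactive X chromosome), against at most 31.4 CPM elsewhere. The summed level of Y-linked genes was 8.13 and 0.0790 CPM in these 2 libraries, against 224 to 674 CPM elsewhere. By these genes the 2 libraries are female and the small pre-B controls male, so sex and genotype are partly mixed in small pre-B cells. Hdac6 and Hdac8 are X-linked. The sorted cells carried B cell markers, read as the summed level of 10 early B cell genes. It was 9301 to 12249 CPM in small pre-B KO and 8839 to 13248 CPM in small pre-B control libraries. In pro-B KO and pro-B control libraries it was 1402 to 1892 and 1909 to 2210 CPM. The sum of 4 small pre-B stage genes was 2922 to 3791, 2635 to 3219, 790 to 974 and 983 to 1329 CPM in this order. Of the 4, Il2ra had 120 to 152 CPM in small pre-B KO and 263 to 437 CPM in small pre-B controls. Cd2 had 56.9 to 68.3 and 91.8 to 271 CPM there, while Cd24a and Ms4a1 overlapped. The pro-B gate also held RNA of other cells. The summed level of 11 myeloid genes was 196 to 377 CPM in small pre-B KO, 104 to 264 CPM in small pre-B control, 10193 to 15120 CPM in pro-B KO and 6326 to 6511 CPM in pro-B control libraries. That of 8 plasmacytoid dendritic genes was 614 to 709, 537 to 594, 6171 to 6875 and 5796 to 6260 CPM in the same order of groups. In small pre-B cells most of it was Tcf4 and Irf8, at 390 to 413 and 205 to 273 CPM in KO libraries. In small pre-B controls these had 282 to 322 and 229 to 244 CPM. Siglech had at most 13.7 CPM in small pre-B libraries. Klk1 had 6.05 to 7.97 CPM in pro-B KO and 70.0 to 101 CPM in pro-B controls. Cd209d and Cd209a were also lower in pro-B KO without overlap, while Siglech, Ccr9 and Irf8 were higher. Bst2 and Tcf4 overlapped there. Further markers, of T cells, natural killer cells and the CD43+ pro-B stage, are given below. The part that all these markers and control 3 play in the results was not tested unless a value without the library is given. In such sorted bulk samples fewer cells of a type and less RNA per cell cannot be told apart, nor can cell type and depth, since total counts did not overlap between the cell types.

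Per length of transcript, the leading histone deacetylase differed between the cell types. In small pre-B cells Hdac5 had the highest mean level, with 105 ± 13.95 RPKM in KO libraries and 133 ± 3.37 RPKM in controls (RPKM is CPM per kilobase of exon; SD, n = 3 each). Hdac7 was next by its mean, at 105 ± 11.3 RPKM in small pre-B KO libraries, where it overlapped Hdac5, and 71.3 ± 31.9 RPKM in small pre-B controls. In small pre-B control 3 Hdac7 had 34.4 RPKM, below Hdac2, Hdac8, Hdac10 and Hdac3 in that library. In pro-B cells Hdac1 stood at the top, at 67.0 ± 2.48 RPKM in KO libraries and 63.1 ± 1.85 RPKM in controls (SD, n = 2 each). The lowest 2 members were Hdac9 and Hdac4 in 3 of the groups, and Hdac6 and Hdac4 in small pre-B controls. By CPM instead, Hdac7 had the highest mean in small pre-B KO (521), pro-B KO (264) and pro-B control (276) libraries. Hdac5 had it in small pre-B controls (506). The level of Hdac1 is uncertain because of pseudogenes, as given below.

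The order of the levels in pro-B controls was Hdac1, Hdac5, Hdac7, Hdac3, Hdac2, Hdac10, Hdac8, Hdac6, Hdac9 and Hdac4, from 63.1 down to 4.99 RPKM. Of the 9 pairs of neighbours in this order, 2 overlapped between libraries: Hdac7 with Hdac3, and Hdac3 with Hdac2. In pro-B KO libraries 3 of 9 pairs overlapped, Hdac5 with Hdac7, Hdac7 with Hdac2, and Hdac6 with Hdac8. In small pre-B KO libraries the order was Hdac5, Hdac7, Hdac2, Hdac1, Hdac3, Hdac8, Hdac10, Hdac6, Hdac9 and Hdac4, from 105 down to 2.22 RPKM, and 3 of 9 pairs overlapped. In small pre-B controls 6 of 9 pairs overlapped, among them Hdac2, Hdac8, Hdac3 and Hdac1 in a chain between 60.3 and 44.3 RPKM. Hdac8 thus had position 4 of the 10 genes in small pre-B controls and position 7 in pro-B controls.

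**Figure D1:**
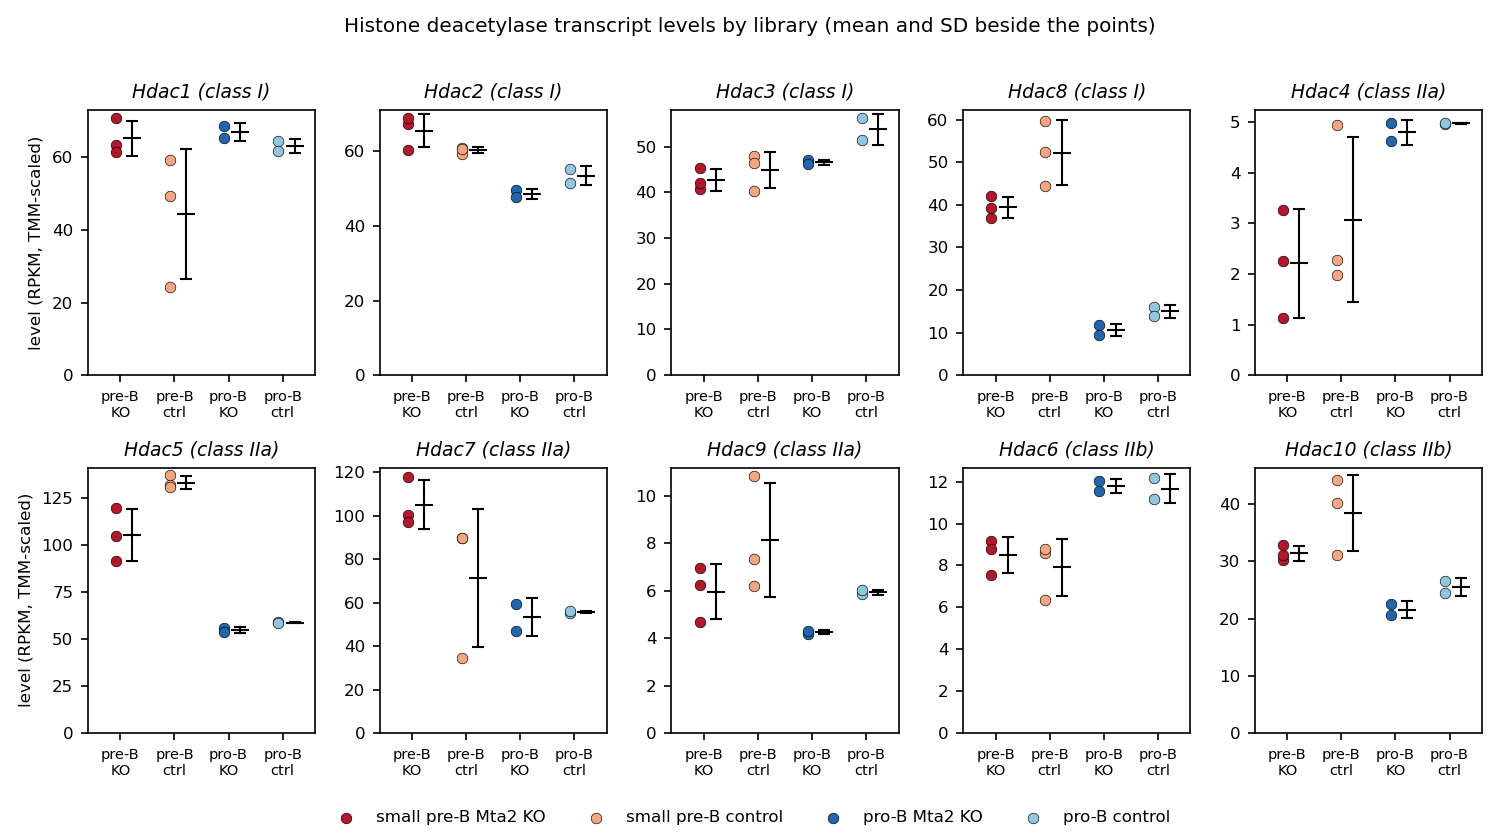
Level of each gene in each library (RPKM on a linear axis from 0, with a separate scale per gene), with 1 point per library and the mean and SD to its right. Hdac8 and Hdac5 lie higher in all 6 small pre-B libraries than in any of the 4 pro-B libraries, and small pre-B control 3 is the low point of Hdac1 and Hdac7.

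Summed over the 10 genes, the level was 472 ± 22.2 RPKM in small pre-B KO libraries, 464 ± 41.7 RPKM in small pre-B controls, 323 ± 17.3 RPKM in pro-B KO libraries and 348 ± 10.1 RPKM in pro-B controls (SD, n = 3, 3, 2 and 2). Class I genes made up 45.2% ± 2.95 of this sum in small pre-B KO libraries, 43.5% ± 0.976 in small pre-B controls, 53.5% ± 1.03 in pro-B KO libraries and 53.2% ± 1.14 in pro-B controls. Class IIa genes made up 46.3% ± 3.30, 46.4% ± 2.55, 36.2% ± 1.23 and 36.1% ± 1.06 in the same order of groups. The class I share was at most 48.5% in the 6 small pre-B libraries and at least 52.4% in the 4 pro-B libraries, so the cell types did not overlap. Its summed level was not lower in small pre-B cells, at 213 ± 10.9 RPKM in KO and 202 ± 14.4 RPKM in control libraries. In pro-B cells it was 173 ± 5.91 and 185 ± 9.36 RPKM. Class I includes Hdac1, whose level is uncertain because of pseudogenes. The class IIb share was 8.48% ± 0.478, 10.1% ± 1.91, 10.3% ± 0.203 and 10.7% ± 0.0786 in the same order, and there small pre-B and pro-B libraries overlapped.

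**Figure D2:**
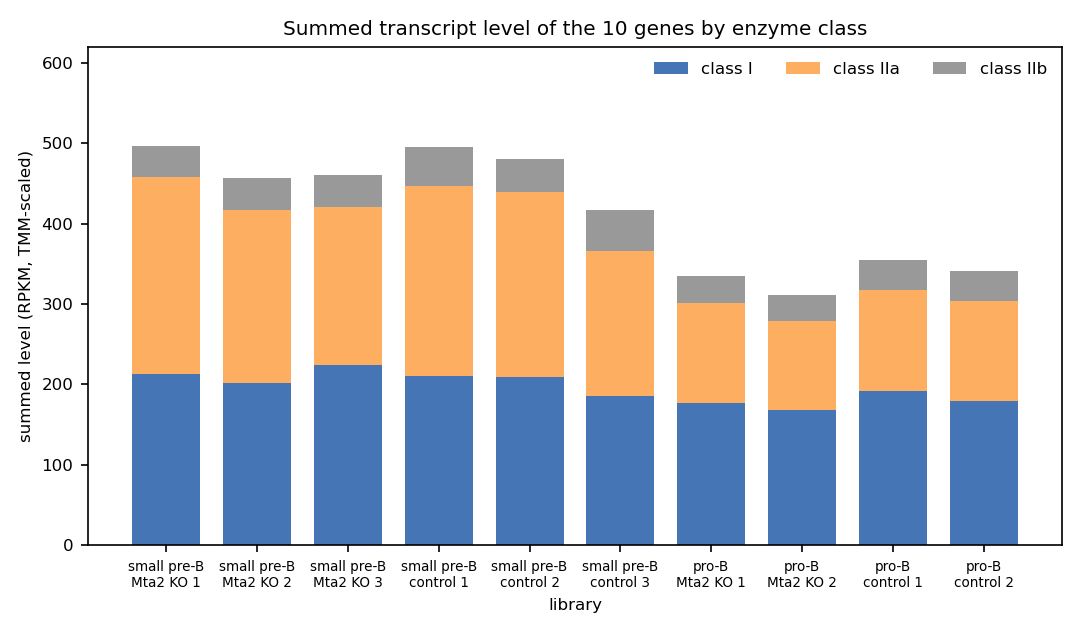
Summed level of the 10 genes in each library (RPKM, linear axis from 0), divided into class I, class IIa and class IIb. The class IIa part reaches 181 to 245 RPKM in small pre-B libraries and 110 to 125 RPKM in pro-B libraries.

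The comparison of small pre-B with pro-B cells asked how the family changes along B cell development. In control cells Hdac8, Hdac5 and Hdac10 were higher and Hdac6 was lower in small pre-B cells, by the edgeR quasi-likelihood test with Benjamini-Hochberg adjustment over 14161 genes. Called here means an adjusted p below 0.05. These 4 of 10 members compare with 55.4% of all genes called, 26% higher and 29.4% lower, a share below that of all genes. The median log2 fold change was 0.27 over the members and -0.02 over all genes. The libraries of the 2 cell types did not overlap for 9 of 10 members, against 73% of all genes.

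Hdac8, the class I enzyme outside the large corepressor complexes, had 90.3, 76.7 and 103 CPM in small pre-B controls and 27.6 and 23.9 CPM in pro-B controls. Every small pre-B control was far above both pro-B controls. The difference was 3.49-fold (log2 1.80, SE 0.16, 95% interval 1.44 to 2.16, adjusted p = 3.0e-05, edgeR quasi-likelihood). In the Mta2 KO libraries Hdac8 had 63.7, 67.6 and 72.4 CPM in small pre-B cells and 20.1 and 16.4 CPM in pro-B cells. All 3 small pre-B libraries, those with and without Xist RNA, were above both pro-B libraries (log2 1.89, SE 0.16, adjusted p = 2.33e-05). Both calls were kept in 18 of 18 alternative fits. Set against Hdac3, another class I gene, Hdac8 had a ratio of RPKM of 0.814 to 0.997 in small pre-B KO, 0.958 to 1.48 in small pre-B control, 0.206 to 0.248 in pro-B KO and 0.270 to 0.285 in pro-B control libraries.

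Hdac5, a class IIa corepressor of MEF2 factors, had 521, 502 and 497 CPM in small pre-B controls and 225 and 222 CPM in pro-B controls. The 2 groups were tight and far apart, by 2.27-fold (log2 1.18, SE 0.12, 95% interval 0.90 to 1.46, adjusted p = 7.02e-05, edgeR quasi-likelihood). In Mta2 KO cells it had 455, 398 and 349 CPM in small pre-B and 212 and 205 CPM in pro-B libraries. There too no small pre-B library came near a pro-B library (log2 0.94, SE 0.12, adjusted p = 2.38e-04), and both calls were kept in 18 of 18 alternative fits. The ratio of RPKM of Hdac5 to Hdac4 was 32.0 to 81.8 in small pre-B KO, 26.4 to 69.3 in small pre-B control, 11.2 to 11.6 in pro-B KO and 11.7 to 11.9 in pro-B control libraries.

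The class IIb genes moved in opposite directions. Hdac10, the polyamine deacetylase, had 108.5, 84.2 and 119 CPM in small pre-B controls and 71.9 and 66.2 CPM in pro-B controls (log2 0.59, SE 0.15, adjusted p = 0.00789, edgeR quasi-likelihood). Hdac6, the tubulin deacetylase, had 35.6, 36.3 and 26.2 CPM in small pre-B controls and 46.3 and 50.4 CPM in pro-B controls (log2 -0.56, SE 0.16, adjusted p = 0.0131). Neither gene overlapped between the 2 control groups. Without pro-B control 2 both calls were lost, at adjusted p = 0.0705 for Hdac10 and 0.0916 for Hdac6 (edgeR quasi-likelihood). In the KO libraries Hdac10 had 81.8, 84.3 and 88.8 CPM in small pre-B and 61.1 and 55.6 CPM in pro-B cells (log2 0.54, SE 0.15, adjusted p = 0.0129). Hdac6 had 37.9, 36.4 and 31.2 CPM in small pre-B KO and 47.9 and 49.8 CPM in pro-B KO libraries (log2 -0.47, SE 0.16, adjusted p = 0.0306). Both KO calls were lost without pro-B KO 2, at adjusted p = 0.104 for Hdac10 and 0.142 for Hdac6. That of Hdac6 was also lost without pro-B KO 1 (0.0995), small pre-B KO 2 (0.0576) or small pre-B KO 3 (0.0865). Without the 2 libraries with Xist RNA both missed the threshold, at 0.0595 for Hdac10 and 0.0632 for Hdac6.

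In Mta2 KO cells 6 of 10 members were called, 5 higher and 1 lower, against 51.3% of all genes (24% higher, 27.3% lower), and the members' median log2 fold change was 0.46. The libraries did not overlap for 9 of 10 members, against 75.9% of all genes. Beside Hdac8, Hdac5, Hdac10 and Hdac6 these were Hdac2 and Hdac7. Hdac2, a catalytic subunit shared by several corepressor complexes, had 135, 121 and 138 CPM in small pre-B KO and 99.3 and 95.6 CPM in pro-B KO libraries (log2 0.43, SE 0.10, adjusted p = 0.00512, edgeR quasi-likelihood), a call lost without pro-B KO 2 (adjusted p = 0.0559). In controls it had 122, 119 and 122 CPM in small pre-B and 111 and 103 CPM in pro-B cells (log2 0.18, SE 0.10, adjusted p = 0.146).

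Hdac7, the class IIa enzyme known for holding down myeloid genes, had 585, 497 and 481 CPM in small pre-B KO and 294 and 233 CPM in pro-B KO libraries. The groups did not overlap (log2 0.98, SE 0.35, adjusted p = 0.0422, edgeR quasi-likelihood), but the call was lost in 9 of 18 alternative fits. These included leaving out either pro-B control, either pro-B KO library or any of the 3 small pre-B KO libraries, with adjusted p between 0.0646 and 0.220. In controls Hdac7 had 444, 446 and 171 CPM in small pre-B and 275 and 278 CPM in pro-B cells, with control 3 below and the other 2 above the pro-B libraries (log2 0.36, SE 0.35, adjusted p = 0.403). Without control 3 the difference was 0.69 (adjusted p = 0.00189). The exons of Hdac7 share 29 bases with Slc48a1 on the opposite strand, and the reads were counted with no strand option.

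Hdac4, the scarcest member per length in 3 of the 4 groups, had 8.88, 12.9 and 4.43 CPM in small pre-B KO and 19.7 and 18.2 CPM in pro-B KO libraries (log2 -1.11, SE 0.45, adjusted p = 0.0658, edgeR quasi-likelihood). In controls it had 7.80, 9.02 and 19.5 CPM in small pre-B and 19.6 and 19.7 CPM in pro-B cells (log2 -0.69, SE 0.45, adjusted p = 0.215). Control 3 was again the odd library, at the pro-B level. Without it the difference was -1.22 in controls (adjusted p = 0.0212) and -1.11 in Mta2 KO cells (adjusted p = 0.0175), where 6 of 18 alternative fits called it. The others that did were DESeq2 (-1.15, adjusted p = 0.0290), limma-voom (-1.22, 0.0268), the compared groups alone (-1.10, 0.0427), and the fits without small pre-B KO 2 (-1.51, 0.0316) or without the 2 libraries with Xist RNA (-2.10, 0.0283).

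The remaining members did not pass in either comparison. Hdac1, a catalytic partner of Hdac2, had log2 fold changes of -0.04 (SE 0.29, adjusted p = 0.924) in Mta2 KO cells and -0.51 (SE 0.29, adjusted p = 0.156) in controls, and in controls -0.77 without small pre-B control 2 (adjusted p = 0.0391, edgeR quasi-likelihood) and -0.21 without control 3, which did not pass. Hdac3, the catalytic subunit of NCoR and SMRT, had -0.12 (SE 0.11, adjusted p = 0.366) and -0.26 (SE 0.11, adjusted p = 0.0637), and passed in controls with DESeq2 size factors (0.0479) and with the DESeq2 test (0.0240). Hdac9, a class IIa gene, had 0.49 (SE 0.24, adjusted p = 0.110) in Mta2 KO cells and 0.46 (SE 0.23, adjusted p = 0.123) in controls. It passed in KO cells without small pre-B control 3 (0.49, adjusted p = 0.0222) and with the compared groups alone (0.50, adjusted p = 0.0475). In controls it passed without small pre-B control 2 (0.63, adjusted p = 0.0399), and was 0.20 without control 3 (adjusted p = 0.340). The 2 stage comparisons use separate libraries, and the difference between them is the same quantity as the difference of the KO effects tested below.

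**Figure D3:**
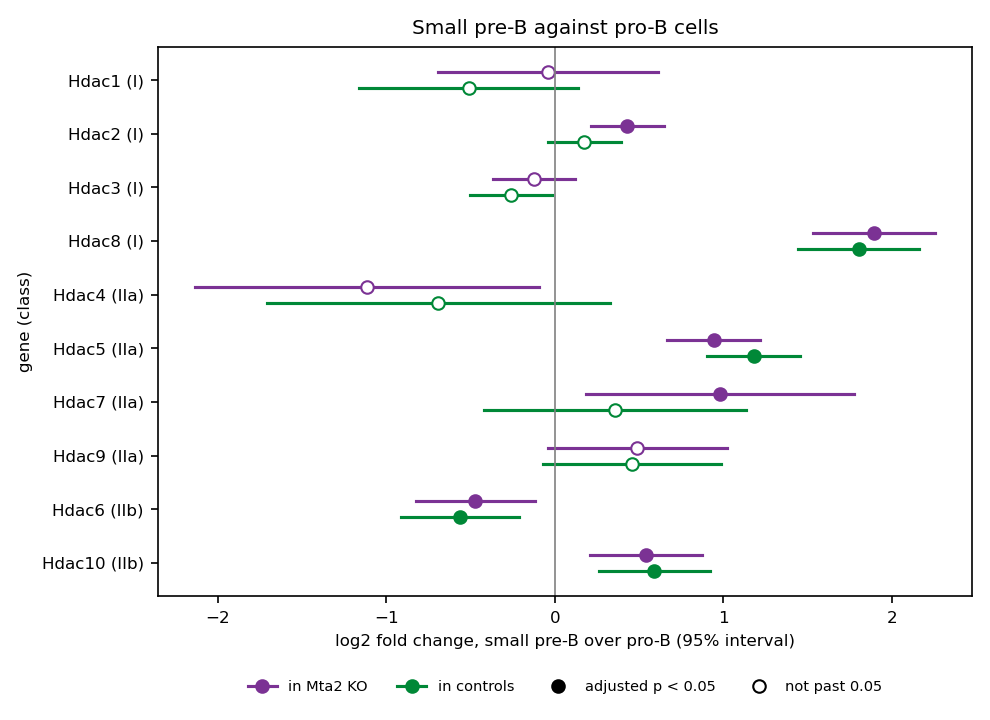
Log2 fold change of each gene in small pre-B over pro-B cells (linear axis), in Mta2 KO and in control libraries, with 95% intervals of the edgeR fit. Filled points have an adjusted p below 0.05. Hdac8 lies farthest to the right in both comparisons, and Hdac6 is the called gene on the left.

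The comparison of Mta2 KO with control cells asked whether the deacetylase transcripts differ when a NuRD subunit is reduced. No member passed in small pre-B cells, where 3.02% of all genes were called. The count was 0 of 10 with edgeR and with limma-voom, which called 3.09% of all genes, and 1 with DESeq2, which called 13.2%. By edgeR 2 members had an unadjusted p below 0.05, against 24.7% of all genes. Every KO library lay beyond every control for 4 of 10 members, against 25% of all genes: Hdac1 and Hdac7 lay higher, Hdac5 and Hdac8 lower. The members' median log2 fold change was -0.18, and 0.01 over all genes.

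Hdac5 had the smallest p: its level was 455, 398 and 349 CPM in small pre-B KO against 521, 502 and 497 CPM in control libraries (log2 -0.34, SE 0.11, 95% interval -0.58 to -0.10, adjusted p = 0.103, edgeR quasi-likelihood). All 3 KO libraries were below all 3 controls, and the DESeq2 test called it (adjusted p = 0.0152). Hdac8 had 63.7, 67.6 and 72.4 CPM in small pre-B KO against 90.3, 76.7 and 103 CPM in control libraries, again with no overlap (log2 -0.41, SE 0.13, 95% interval -0.71 to -0.10, adjusted p = 0.114). Without small pre-B control 2, where 11.6% of all genes were called, it passed at -0.51 (adjusted p = 0.0436), and so did Hdac10, at -0.43 (adjusted p = 0.0387). That was the only 1 of 19 alternative fits to call Hdac8. Over the fits leaving out 1 library the log2 fold change of Hdac8 ranged from -0.51 to -0.30. With all libraries Hdac10 was at -0.29 (SE 0.13, adjusted p = 0.203), and without control 3 at -0.18 (adjusted p = 0.431).

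Hdac1 had 125, 121 and 139.6 CPM in the small pre-B KO libraries against 97.3, 117 and 48.1 CPM in controls. The KO libraries were all higher, and control 3 was the lowest (log2 0.56, SE 0.26, adjusted p = 0.222, edgeR quasi-likelihood); without control 3 the difference was 0.26. Hdac7 was at 585, 497 and 481 CPM against 444, 446 and 171 CPM in the same groups (log2 0.56, SE 0.31, adjusted p = 0.288), and the difference was 0.23 without control 3. The ratio of RPKM of Hdac5 to Hdac7 was 0.946 to 1.05 in the 3 KO libraries and 1.47, 1.53 and 3.80 in the controls, with no overlap. Hdac4 (log2 -0.47) turned to 0.06 without control 3, and was -0.87 without small pre-B KO 2, -0.16 without small pre-B KO 3 and -1.45 without the 2 libraries with Xist RNA, with adjusted p between 0.253 and 0.953 in these 4 fits. Hdac9 had -0.45 (SE 0.21, adjusted p = 0.219), and -0.19 without control 3, -0.30 without small pre-B KO 1 and -0.22 without the 2 libraries with Xist RNA. Hdac2 at 0.12, Hdac3 at -0.07 and Hdac6 at 0.11 had adjusted p between 0.406 and 0.685, and their 95% intervals lay within -0.29 to 0.43.

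A pair of processed pseudogenes limit Hdac1. Its transcript matches the mouse pseudogene Gm10093 at 99.4% identity over 1444 bases and AC125456.1 at 96.3% over 1450 bases, so reads may be divided or dropped, and its level is uncertain. Markers of other cells were also summed in small pre-B cells. The summed level of 10 T cell genes was 47.4 to 81.2 CPM in KO and 4.43 to 13.9 CPM in control libraries, without overlap. That of 8 natural killer genes was 83.9 to 154 CPM in small pre-B KO and 8.84 to 112 CPM in small pre-B control libraries, which overlapped. The 5 genes of the CD43+ pro-B stage summed to 801 to 1774 CPM in small pre-B KO and 289 to 869 CPM in small pre-B control libraries, again with overlap. Their sums were 1463 to 1675 CPM in pro-B KO and 1290.5 to 1425 CPM in pro-B control libraries. Small pre-B KO libraries thus overlapped the pro-B libraries in this sum, and small pre-B controls did not. Of these 5 genes, Spn (the gene of CD43) had 89.4 to 146 CPM in small pre-B KO and 108 to 147 CPM in small pre-B controls. Kit had 36.3 to 81.9 and 3.64 to 14.9 CPM in these groups, and Igll1 221 to 462 and 57.6 to 194 CPM. Both lay higher in every small pre-B KO library than in any small pre-B control. Vpreb1 (118 to 261 and 21.8 to 119 CPM) and Dntt (311 to 824 and 62.9 to 394 CPM) reached higher in KO but overlapped.

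In pro-B cells 0 of 10 members passed with edgeR, DESeq2 or limma-voom, where these called 0.0353%, 1.29% and 1.05% of all genes. One member, Hdac8, had an unadjusted p below 0.05, against 6.45% of all genes. It was at 20.1 and 16.4 CPM in pro-B KO against 27.6 and 23.9 CPM in pro-B control libraries, both KO libraries lower (log2 -0.50, SE 0.16, 95% interval -0.87 to -0.13, adjusted p = 0.523, edgeR quasi-likelihood). Hdac9 was at 45.4 and 46.7 CPM in pro-B KO and 63.4 and 65.3 CPM in pro-B control libraries, 2 tight groups that did not overlap (log2 -0.48, SE 0.25, adjusted p = 0.919). Fitted in the pro-B libraries alone it passed (adjusted p = 0.0136), where 6.09% of all genes did.

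The other 8 members had log2 fold changes from -0.24 for Hdac10 to 0.09 for Hdac1. Groups did not overlap for 7 of 10 members, with Hdac1 higher and Hdac2, Hdac3, Hdac5, Hdac8, Hdac9 and Hdac10 lower in KO, against 55.5% of all genes. With 2 libraries a group such a separation is common. The widest intervals were those of Hdac4 (-1.17 to 1.07) and Hdac7 (-0.91 to 0.78), so differences of that size were not detectable in this fit. Its spread is estimated over all 10 libraries, so the pro-B intervals and p-values also carry the spread of small pre-B libraries. The pro-B libraries themselves were tight for Hdac4, at 19.7 and 18.2 CPM in KO and 19.6 and 19.7 CPM in controls. The myeloid marker sum was higher in pro-B KO than in pro-B control libraries, as given above. The 10 genes of the T cell list summed to 493 to 543 CPM in pro-B KO and 354 to 411 CPM in pro-B control libraries. Most of this was Cd4, with 289 to 313 and 231 to 299 CPM in these groups. Cd3d, Cd3e and Cd3g each lay within 11.1 to 19.9 CPM in pro-B KO and 7.62 to 12.5 CPM in pro-B controls. The sum is therefore no measure of T cell content in this gate. The 8 natural killer genes summed to 372 to 596 CPM in pro-B KO and 489 to 568 CPM in pro-B control libraries.

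**Figure D4:**
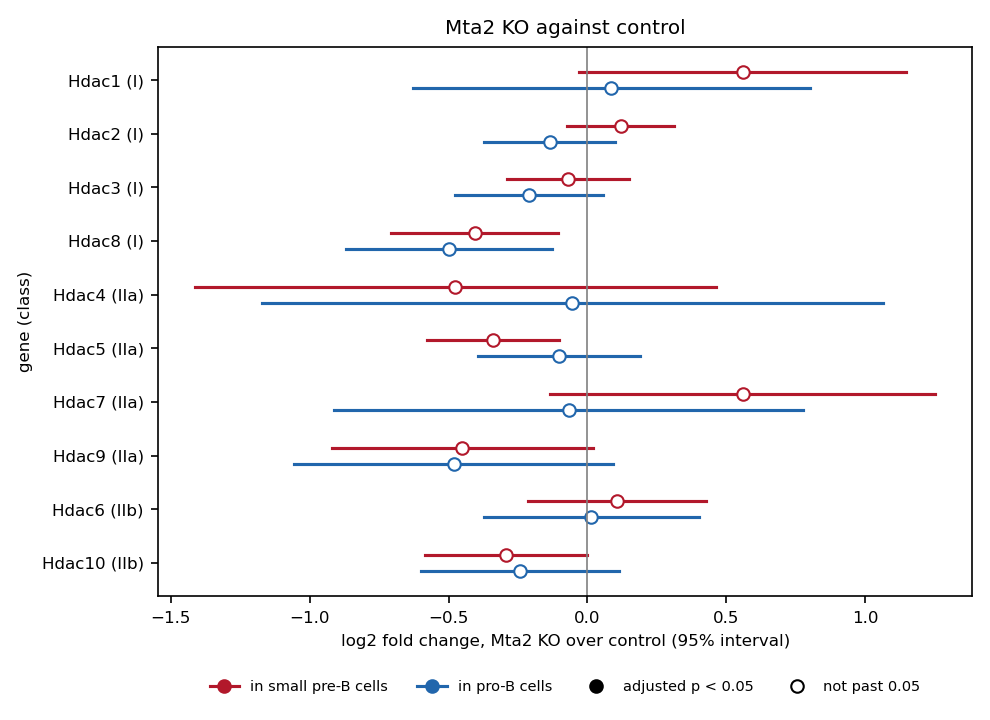
Log2 fold change of each gene in Mta2 KO over control (linear axis), in small pre-B and in pro-B cells, with 95% intervals of the edgeR fit. No point is filled, since none has an adjusted p below 0.05; the intervals of Hdac8 in both cell types and of Hdac5 in small pre-B cells lie below 0.

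The effect of the Mta2 KO was not shown to differ between the cell types for any member. The difference of the effects, small pre-B minus pro-B, had 0 of 10 members called by edgeR, DESeq2 or limma-voom and 0 with an unadjusted p below 0.05, against 0% of all genes called by edgeR and by limma-voom, 0.41% by DESeq2 and 6.4% with an unadjusted p below 0.05. Its smallest adjusted p was 0.774, for Hdac2 (log2 0.26, SE 0.14, edgeR quasi-likelihood). For Hdac8 the difference was 0.09, with a 95% interval from -0.39 to 0.57, and for Hdac5 it was -0.24, from -0.62 to 0.14. The widest interval was that of Hdac4, from -1.88 to 1.04.

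Under the Mta2 KO, 6 of the 10 members (Hdac3, Hdac4, Hdac5, Hdac8, Hdac9 and Hdac10) had log2 fold changes below 0 in both cell types. The share of all genes that did so was not computed, so this count is a description only. The mean of the 2 KO effects was also computed, a contrast chosen after these values were seen. It called 0 of 10 members by edgeR quasi-likelihood, against 2.16% of all genes, and 4 members (Hdac5, Hdac8, Hdac9 and Hdac10) had an unadjusted p below 0.05, against 19.3% of all genes. The smallest p was that of Hdac8, with a mean effect of -0.45 (SE 0.11, adjusted p = 0.0624, edgeR quasi-likelihood). For Hdac8 all 5 KO libraries were below every control of their cell type. Groups did not overlap, in either direction, for 25% of all genes in small pre-B and 55.5% in pro-B cells. The share separated in both cell types was not computed. Of 18 alternative fits 4 called Hdac8, with adjusted p from 0.00692 to 0.304 over the 18. These 4 also called more of all genes: 10.1% with DESeq2, 5.21% with limma-voom (Hdac8 at 0.0478), 7.7% without small pre-B control 2 (0.0209) and 4.68% without control 3 (0.0487). For Hdac10 the mean effect was -0.27 (SE 0.10, adjusted p = 0.196), called in 1 of 18 alternatives, without small pre-B control 2 (-0.34, adjusted p = 0.0384). For Hdac9 it was -0.47 (SE 0.16, adjusted p = 0.166), called in 0 of 18.

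The partners of these enzymes were read from 9 gene lists, given as counts of called genes, to be read against the 51.3% of all genes called in the stage comparison of KO cells and the 55.4% called in that of controls. Genes of these lists named below passed in every alternative fit of their comparison unless said otherwise. Among 10 CoREST genes, 6 were higher and 2 lower in small pre-B KO over pro-B KO cells, and 5 higher and 2 lower in small pre-B over pro-B controls. The list's median log2 fold change was 0.54 in KO and 0.57 in control cells, against -0.02 over all genes in both. Gse1, a CoREST subunit, had 592 ± 48.5 CPM in small pre-B KO and 192 ± 37.8 CPM in pro-B KO cells (log2 1.62, SE 0.23, adjusted p = 3.74e-04, edgeR quasi-likelihood). The demethylase gene Kdm1a had 142 ± 10.8 CPM in small pre-B and 89.1 ± 3.72 CPM in pro-B controls (log2 0.67, SE 0.11, adjusted p = 8.41e-04). Rcor3, another CoREST scaffold, was lower, at 6.98 ± 1.18 CPM in small pre-B and 20.4 ± 1.27 CPM in pro-B controls (log2 -1.55, SE 0.21, adjusted p = 3.35e-04).

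Of 13 NuRD genes, 3 were higher and 3 lower in small pre-B over pro-B KO cells, and 0 higher and 4 lower in controls. Mta1, a relative of Mta2, had 52.4 ± 17.1 CPM in small pre-B and 146 ± 4.21 CPM in pro-B controls (log2 -1.48, SE 0.26, adjusted p = 0.00140, edgeR quasi-likelihood). Of 13 Sin3 genes 1 was higher and 1 lower in each comparison. Arid4b, a Sin3 subunit, had 200.2 ± 26.3 CPM in small pre-B and 76.8 ± 1.89 CPM in pro-B controls (log2 1.38, SE 0.12, adjusted p = 2.92e-05). Of 5 NCoR and SMRT genes 0 were called in KO cells and 2 were higher in controls. Of 3 MiDAC genes 2 were lower in KO cells and 1 in controls: Trerf1 had 0.847 ± 0.602 CPM in small pre-B and 19.4 ± 0.310 CPM in pro-B controls (log2 -4.53, SE 0.47, adjusted p = 7.16e-05).

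Class IIa partners and kinases gave mixed counts. Of 11 MEF2 and 14-3-3 genes, 2 were higher and 2 lower in small pre-B over pro-B KO cells, and 1 higher and 2 lower in controls. Mef2a had 60.2 ± 8.45 CPM in small pre-B KO and 90.8 ± 2.30 CPM in pro-B KO cells (log2 -0.59, SE 0.14, adjusted p = 0.00687, edgeR quasi-likelihood). Of 12 tested kinases, 2 were higher and 3 lower in KO cells, and 3 higher and 3 lower in controls. The calmodulin-dependent kinase gene Camk2d had 398 ± 16.5 CPM in small pre-B and 80.0 ± 8.18 CPM in pro-B controls (log2 2.31, SE 0.15, adjusted p = 7.26e-06), while Camk2g was at 34.4 ± 5.34 and 79.5 ± 13.3 CPM in these groups (log2 -1.21, SE 0.15, adjusted p = 2.01e-04).

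Among the 8 deacetylases outside the family named here, 2 were higher and 1 was lower in both stage comparisons. Hdac11, the class IV enzyme, had the largest difference of these in controls, with 52.0 ± 14.6 CPM in small pre-B and 9.81 ± 1.14 CPM in pro-B controls (log2 2.41, SE 0.25, adjusted p = 6.31e-05, edgeR quasi-likelihood). Sirt1, a class III deacetylase, was at 85.6 ± 15.9 and 43.5 ± 3.04 CPM in these groups (log2 0.98, SE 0.15, adjusted p = 7.26e-04). Of 13 acetyltransferases, which add the groups that the deacetylases remove, 5 were higher and 2 lower in KO cells, and 6 higher and 2 lower in controls. Ncoa2 had 386 ± 91.7 CPM in small pre-B and 164 ± 6.51 CPM in pro-B controls (log2 1.23, SE 0.19, adjusted p = 5.74e-04), and Kat2a had 48.7 ± 12.2 and 90.7 ± 3.65 CPM (log2 -0.90, SE 0.18, adjusted p = 0.00286).

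Between Mta2 KO and control cells the same lists gave 2 calls in small pre-B cells and 0 in pro-B cells, where 3.02% and 0.0353% of all genes were called. The 2 were Mta2 itself and Trerf1, which had 4.25 ± 1.46 CPM in small pre-B KO and 0.847 ± 0.602 CPM in small pre-B controls (log2 2.34, SE 0.44, adjusted p = 0.0347, edgeR quasi-likelihood), a call kept in 9 of 19 alternative fits and, of those leaving out 1 library, only without small pre-B control 2 or 3. The difference of the effects gave 0 calls over all 9 lists.

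Among the members, Hdac9 and Hdac10 had the most alike profiles over the 10 libraries, with a root-mean-square distance of 0.19 between their centred log2 CPM values, and Hdac4 and Hdac8 the least alike, at 1.49. Across all tested genes, those nearest to Hdac8 were Phka1 at 0.11 and Cdk5r1 at 0.11. Nearest to Hdac5 were Polg at 0.09 and Zcchc4 at 0.10, to Hdac10 Prdm15 at 0.05 and Dnajc28 at 0.08, and to Hdac6 Crlf2 at 0.04 and Synj1 at 0.07. These distances are descriptions over 10 libraries of 2 cell types.

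In the mm10 annotation of the files, Hdac8 lies on chromosome X from 102284640 to 102505148 with 11 exon blocks, and Hdac5 on chromosome 11 from 102195747 to 102230172 with 27. Both are on the minus strand, as are 9 of the 10 members. The counted exon length ranged from 1724 bases for Hdac8 to 10866 bases for Hdac9. Beside the 29 bases of Hdac7, the files show no exon bases shared with another gene. In the GENCODE annotation 132 exon bases of Hdac4 (3.35%) lie opposite the non-coding gene Gm26720, and 111 of Hdac5 (2.92%) hold the microRNA gene Mir8101.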

How the data were processed

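The authors deposited raw read counts per gene, 1 table per library. Per the file headers they came from featureCounts 1.4.3-p1 over exons of an mm10 annotation, with no strand option. Per the submitters' processing notes, STAR, CASAVA 1.82 and the mm9 build were used, and per the labels' protocols the kit was a stranded mRNA one. The exon lengths are those of the deposited count tables.

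Libraries were grouped by the labels. The 10 members and the gene lists were chosen with earlier results of these data known. The other cell type and genotypes that the series names were not analysed here. In edgeR 4.0.16 (R 4.3.3), genes were filtered per group with filterByExpr (at least 10 counts, and 15 in total), which kept 14161 of 23420 genes. One model held a mean for each group over the 10 libraries; contrasts were tested by robust quasi-likelihood F-tests and Benjamini-Hochberg adjustment over all tested genes at 0.05. Intervals are at 95%, and floors of 3 counts cover counting error only. Alternatives were DESeq2 1.42.0, limma-voom (limma 3.58.1), other scaling and filters, the compared groups alone, a replicate block, leaving out each library, and leaving out the 2 libraries with Xist RNA. The code was tested on simulated data. From each list, at most 4 genes a comparison with the smallest p among those called were eligible to be named; profiles were centred log2 CPM with a prior count of 2. Pseudogene matches came from blastn 2.17.0.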

Additional observations from a re-analysis of the deposited data

How the results depend on the processing

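Of 920 recomputed member values, 862 kept direction and side of the threshold, 19 lost and 18 gained a call, and 21 turned sign, none of them called. In pro-B cells the Mta2 KO comparison called 1 member in the compared groups alone. In small pre-B cells it called 1 with DESeq2, and 0 to 2 when a library was left out (2 without control 2). When a small pre-B library was left out, the stage comparisons called 4 to 6 members in controls and 4 to 8 in KO cells. All-gene calls moved as well. In KO cells the 4 came with 6412 of 14353 genes (small pre-B KO 3 left out). The 8 came with 8657 of 13811 (control 3 left out). In controls the 6 came with 7902 genes (control 2 left out) and 8086 (control 3 left out), and the 4 with 7584 to 8026. Leaving out a pro-B library leaves 1 in its group, so those counts are not given. The calls lost there are named above. Without the 2 libraries with Xist RNA, log2 fold changes turned to -0.0609 for Hdac6 (KO, small pre-B), -0.0764 for Hdac6 and 0.0190 for Hdac10 (difference of KO effects) and 0.0782 for Hdac1 (stage, KO). When libraries were left out, the KO effect ranged from -0.0457 to 0.0769 for Hdac6 and -0.243 to 0.0908 for Hdac7 in pro-B cells. In small pre-B cells it ranged from -0.874 to 0.0568 for Hdac4 and -0.0344 to 0.185 for Hdac6. The difference of KO effects ranged from -0.820 to 0.110 for Hdac4, -0.0492 to 0.175 for Hdac6, -0.0440 to 0.246 for Hdac8, -0.127 to 0.295 for Hdac9 and -0.179 to 0.0606 for Hdac10, and the stage difference of Hdac1 in KO cells from -0.100 to 0.00384. The causes were not tested. With the title number as a replicate block the KO comparisons called 0 members. They called 0 genes in pro-B and 153 in small pre-B cells, against 5 and 428 without it. Deviations of log2 CPM from the group mean were correlated between same-numbered KO and control libraries. The values were 0.102, 0.155 and 0.0449 in small pre-B cells and 0.0147 in pro-B cells. With 2 libraries a group the pro-B deviations mirror each other, so only the sign of that value could vary. The numbers were not taken as pairs. By these deviations every small pre-B library correlated best with its own number, a hint from the data only. Over all alternatives, all-gene calls ranged from 0 to 856 (KO, pro-B), 0 to 1869 (KO, small pre-B), 0 to 58 (difference of KO effects), 4673 to 8657 (stage, KO) and 5335 to 8343 (stage, controls). By CPM instead of RPKM, 18 of 40 positions by level differed.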
